A study of Rattus norvegicus with 12 samples.

Results

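The cGMP-dependent protein kinase Prkg1 and 9 phosphodiesterases (Pde1a, Pde1c, Pde2a, Pde3a, Pde3b, Pde4b, Pde4d, Pde5a and Pde9a) were followed in RNA from the left atrium of rats. The 10 genes were picked by symbol, and all 10 were found among the 21239 genes that had counts. With libraries grouped by their names, none of the 10 passed the test for a difference in any of the 4 comparisons. In the untreated hypertensive rats, Pde3b and Pde9a read below every normotensive library and Pde4b above every one, without reaching the adjusted threshold. Groups were separated in this way for 49.6% of all genes tested. The normotensive libraries had low atrial and high ventricular markers, so strain and chamber markers cannot be told apart.

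Phosphodiesterases end cyclic nucleotide signals by hydrolysing cGMP and cAMP, and the families differ in which of these they take and in how they are controlled. cGMP is made by natriuretic peptide receptors at the cell surface and by soluble guanylyl cyclase, which nitric oxide activates, and Prkg1 carries much of its effect to smooth muscle and heart muscle. In cardiomyocytes, cAMP raises the force and rate of contraction, and phosphodiesterases of the PDE3 and PDE4 families are known to hold it in check. Sacubitril, after conversion in the body, inhibits neprilysin, an enzyme that degrades natriuretic peptides. Valsartan blocks the angiotensin II type 1 receptor.

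There were 4 groups of 3 libraries, from male rats that were 14 weeks old at purchase and were dosed daily for 4 weeks. The WKY group (Wistar-Kyoto rats, the normotensive control strain) and the SHR group (spontaneously hypertensive rats) received saline at 7.5 ml/kg. The ARB group was SHRs given valsartan at 30 mg/kg, and the ARNI group was SHRs given sacubitril/valsartan at 60 mg/kg. For the 6 saline libraries, the strain words in the sample titles contradict the bracketed library names. The library names were followed here, as they match the count columns, and taking the title words instead would swap the WKY and SHR groups and turn the sign of every difference between them. WKY rats are a separate strain, so strain and blood pressure cannot be told apart.

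Library totals ran from 11252361 to 15823525 counts. The labelled tissue was checked against chamber markers. The atrial light chain Myl7 stood at 0.889 to 15.9 CPM (a gene's counts divided by its library total and scaled to counts per 1000000) in the 3 WKY libraries and at 9.67 CPM in ARNI replicate 2, against 4478 to 11547 CPM in the other 8 libraries. The ventricular light chain Myl2 was above 2000 CPM in those same 4 libraries and also in SHR replicate 2 and ARB replicate 3. The 10 atrial markers summed to 171 to 386 CPM in the WKY libraries and 169 CPM in ARNI replicate 2, with at most 2 of the 10 at 0 in any library, against 28235 to 78338 CPM elsewhere. The 9 ventricular markers summed to 43797 to 44199 CPM in WKY and to 638 to 10235 CPM in SHR. Of the 7 of these tested in SHR against WKY, 6 were lower and 1 was higher in SHR. By these markers the WKY libraries read more like ventricle than atrium. Group and chamber markers therefore cannot be told apart between the SHR and WKY libraries, and the part of this in any value below was not tested. In bulk tissue, fewer cells of a type and less RNA per cell cannot be told apart either.

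Of the 10 genes, Pde3a had the most reads, 2028 to 3451 per library, and Pde1c the fewest, 8 to 37. Read numbers also depend on transcript length, so levels were compared only within a gene. Pde2a was the steadiest of the 10, with its highest library 1.31 times its lowest. Pde4d followed with 1.51 times and Pde3a with 1.88 times. Pde3b varied the most, by 6.19 times, ahead of Pde1c at 5.17 times and Prkg1 at 3.62 times. Each gene's 12 library values are drawn in the plot of CPM by group.

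**Figure D1:**
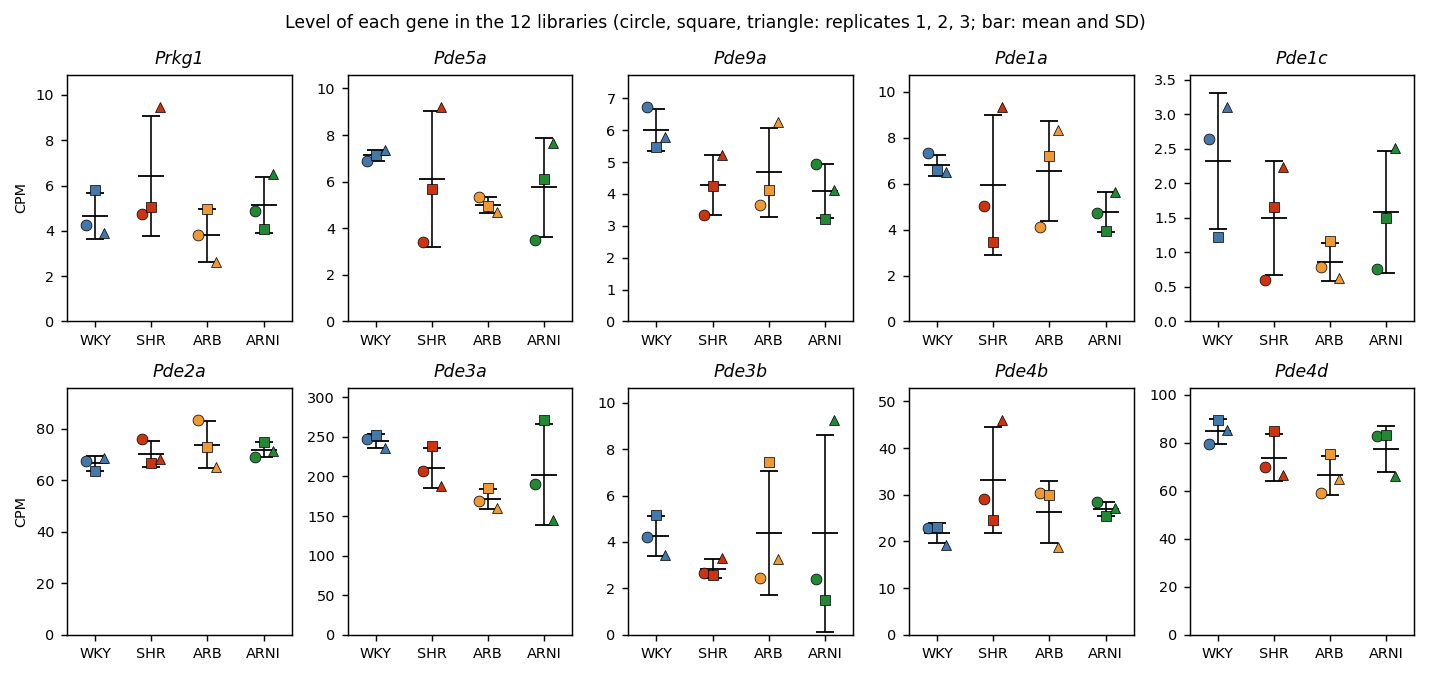
CPM of the 10 genes in each of the 12 libraries, by group, with circle, square and triangle for replicates 1, 2 and 3 and bars for the group mean and SD (n = 3). The groups overlap for most genes, and the single high libraries of Pde3b (7.45 CPM in ARB replicate 2 and 9.25 CPM in ARNI replicate 3) and of Prkg1 (9.48 CPM in SHR replicate 3) stand out.

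Pde3a and Pde4d, both of which act on cAMP, had the most similar profiles of any pair among the 10 genes. Pearson's r of their log2 CPM over the 12 libraries was 0.89, which is a description across libraries that share depth and chamber markers with the groups. Windows of 250 bases before annotated starts of both are shown for this reason, from RefSeq on build GRCr8, while the counts were made on Rnor_6.0. The Pde4d window, chr2:42592499-42592748 on the plus strand, is 1 of 5 windows of this gene, and the Pde3a window is chr4:175904026-175904275 on the plus strand. Capitals mark TGACG, the core of the cAMP response element, or its reverse complement.
Pde4d: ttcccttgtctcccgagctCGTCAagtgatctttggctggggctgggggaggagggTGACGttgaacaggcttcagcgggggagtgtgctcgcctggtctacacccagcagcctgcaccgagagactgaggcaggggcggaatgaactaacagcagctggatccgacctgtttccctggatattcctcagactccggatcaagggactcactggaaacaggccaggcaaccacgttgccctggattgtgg
Pde3a: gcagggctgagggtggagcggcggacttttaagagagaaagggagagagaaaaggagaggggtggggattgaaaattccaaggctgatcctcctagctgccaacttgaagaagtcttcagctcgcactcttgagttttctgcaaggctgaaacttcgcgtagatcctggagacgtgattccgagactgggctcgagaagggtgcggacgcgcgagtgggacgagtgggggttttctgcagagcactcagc
The Pde4d window held 2 such cores and the Pde3a window held none. The Pde4d window shown is the one with the most cores, as its 5 windows held 0, 0, 2, 1 and 0. Of all 33469 rat windows of this length, 18.2% held the core on either strand. Among the 14 windows found for 8 of the 10 genes, 2 held it, both of them before Pde4d. The full element TGACGTCA, which contains the core, was in 0 of the 14 and in 1.59% of all windows. The letters AGATAA, bound by GATA factors, were in 3 of the 14 windows (Prkg1, Pde1c and a Pde4b start) and in 10.3% of all. A match describes letters and is not evidence of binding.

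The SHR and WKY groups were compared as the untreated hypertensive and normotensive rats. Their libraries also differed in chamber markers, so the comparison does not show how the atrium alone differed. A gene was called when its level differed at least 2-fold (a log2 difference of 1 or more) with an adjusted p of at most 0.05, in the quasi-likelihood test of edgeR, adjusted by Benjamini-Hochberg over all genes tested. Of 13794 genes tested, 1226 were called (8.89%), 5.54% as higher and 3.35% as lower in SHR, and 0 of the 10 genes were called. All 10 passed the filter on low counts. Without the fold threshold, 20.6% of genes tested passed, 12.3% as higher and 8.26% as lower, and again 0 of the 10 did. At an unadjusted p under 0.05 there were 3 of the 10 (Pde3a, Pde3b and Pde9a) by edgeR and 3 by DESeq2, against 39.4% of all genes by edgeR. The 3 libraries of each group did not overlap for 3 of the 10, against 49.6% of all genes. The median log2 difference of the 10 was -0.35, with 8 below 0, beside a median of 0.01 over all genes. Without scaling beyond the library totals the median of all genes moved to 0.15 and that of the 10 to -0.21, with 7 below 0.

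Prkg1, the kinase that cGMP activates, was at 4.25, 5.82 and 3.91 CPM in WKY and at 4.75, 5.04 and 9.48 CPM in SHR. The groups overlapped, and the high SHR mean rested on replicate 3. The log2 difference was 0.31 ± 0.30 (SE, n = 3 per group), with an adjusted p of 0.466 by edgeR. Without SHR replicate 3 it was -0.02.

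Pde5a and Pde9a hydrolyse cGMP with little action on cAMP, and Pde5a is the target of sildenafil. Pde5a was at 6.90, 7.13 and 7.38 CPM in WKY and at 3.41, 5.68 and 9.21 CPM in SHR. The WKY libraries lay close together inside the wide SHR range. Its log2 difference was -0.38 ± 0.32 (SE, n = 3 per group; adjusted p of 0.421 by edgeR). Pde9a, which has a high affinity for cGMP, was at 6.73, 5.48 and 5.78 CPM in WKY and at 3.34, 4.26 and 5.22 CPM in SHR. All SHR libraries lay below all WKY libraries, by a log2 difference of -0.63 ± 0.21 (95% interval -1.13 to -0.13). Its unadjusted p was 0.0206 and its adjusted p was 0.0734 by edgeR. The level of Pde9a in SHR was thus 0.647 times that in WKY, with an interval from 0.458 to 0.913, and did not pass after adjustment.

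Pde1a and Pde1c are stimulated by calcium and calmodulin and act on both cyclic nucleotides. Pde1a was at 6.49 to 7.33 CPM in WKY and at 5.02, 3.47 and 9.35 CPM in SHR, and the groups overlapped. Its log2 difference was -0.35 (95% interval -1.12 to 0.42). Pde1c was at 1.22 to 3.11 CPM in WKY and at 0.602 to 2.24 CPM in SHR. Its log2 difference of -0.78 had an interval from -2.06 to 0.50, so neither a large decrease nor a modest increase was separated from no difference. Pde2a, which cGMP stimulates to hydrolyse cAMP, was at 67.4, 63.4 and 68.7 CPM in WKY and at 75.8, 66.6 and 68.0 CPM in SHR. In the fit, which scales beyond the library totals, the SHR level was 0.961 times the WKY level. Its 95% interval from 0.817 to 1.13 leaves out a 2-fold difference in either direction. The CPM means, without that scaling, lay the other way, at 70.2 in SHR and 66.5 in WKY.

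Pde3a and Pde3b hydrolyse cAMP and are inhibited by cGMP, and Pde3a is the form known for heart muscle and platelets. Pde3a was at 248, 252 and 236 CPM in WKY and at 207, 239 and 188 CPM in SHR. The ranges touched through SHR replicate 2, the SHR library with Myl2 at 2298 CPM. The log2 difference was -0.34 ± 0.14 (SE, n = 3 per group), with an unadjusted p of 0.0496 and an adjusted p of 0.127 by edgeR. Without SHR replicate 2 it was -0.48, with an adjusted p of 0.0157, which is past the threshold on p and short of 2-fold. Pde3b, the form known for adipocytes and liver, was at 4.19, 5.16 and 3.42 CPM in WKY and at 2.66, 2.56 and 3.31 CPM in SHR. All SHR libraries lay below all WKY libraries, the nearest pair being 3.31 and 3.42 CPM. Its log2 difference was -0.72 ± 0.22 (95% interval -1.25 to -0.20), with an unadjusted p of 0.0143 and an adjusted p of 0.0596 by edgeR.

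Pde4b and Pde4d are specific for cAMP and are the targets of rolipram. Pde4b was at 22.8, 23.1 and 19.3 CPM in WKY and at 29.0, 24.5 and 46.0 CPM in SHR. All SHR libraries lay above all WKY libraries, with replicate 3 far above the other two. The log2 difference was 0.46 ± 0.20 (95% interval -0.02 to 0.94), with an adjusted p of 0.142 by edgeR. Without SHR replicate 2 it was 0.60 (adjusted p of 0.0344 by edgeR), and without SHR replicate 3 it was 0.21 (adjusted p of 0.240). Pde4d was at 79.4, 89.5 and 85.5 CPM in WKY and at 70.0, 84.8 and 66.4 CPM in SHR. Again SHR replicate 2 lay among the WKY libraries. The log2 difference was -0.33 ± 0.15 (SE, n = 3 per group; adjusted p of 0.144 by edgeR), and without SHR replicate 2 it was -0.48 (adjusted p of 0.0136).

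**Figure D2:**
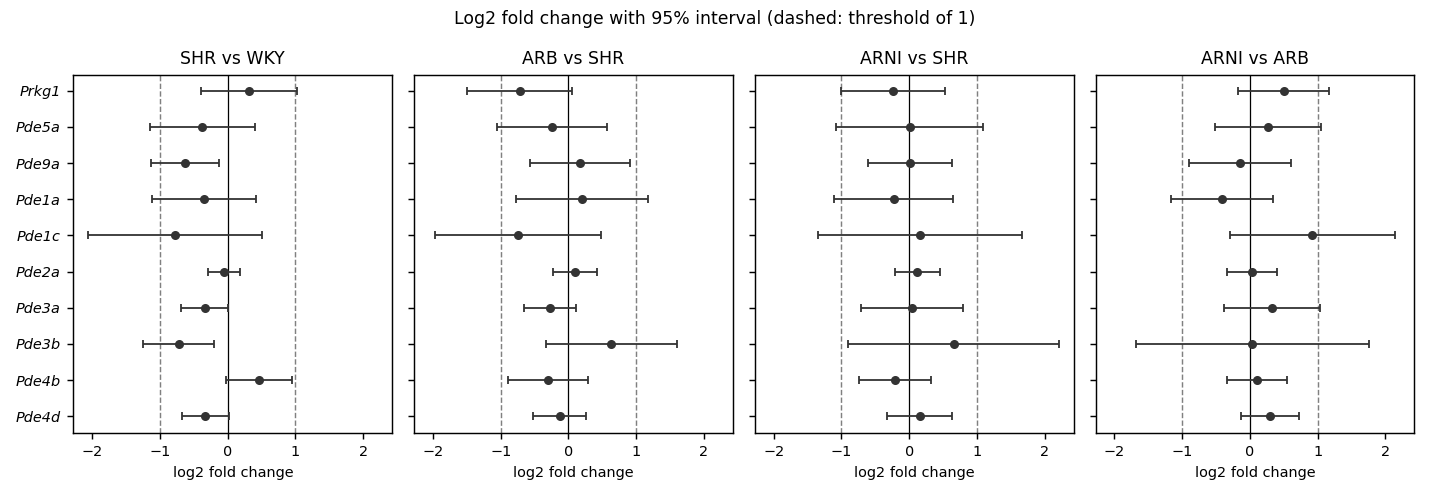
Log2 fold change of each of the 10 genes with its 95% interval in the 4 comparisons, from edgeR. In SHR against WKY only the intervals of Pde3a, Pde3b and Pde9a lie wholly below 0, and in the 3 comparisons with treated rats every interval spans 0.

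Other genes of the pathway were read from 6 lists, of which most tested members were not called in SHR against WKY either. Of the other phosphodiesterases, 10 of 16 had enough reads to be tested, and 2 of these were called, 1 in each direction, against 8.89% of all genes. Pde7a, which is specific for cAMP, was at 8.09 to 9.76 CPM in WKY and at 68.9, 43.9 and 79.6 CPM in SHR, a log2 difference of 2.68 ± 0.20 (adjusted p of 0.00187 by edgeR). Pde4c, of the same family as Pde4b and Pde4d, was lower in SHR by a log2 difference of -2.09 ± 0.53 (adjusted p of 0.0389 by edgeR), from 8.96 to 12.4 CPM in WKY to 0.736, 3.47 and 4.27 CPM. In ARNI replicate 2, the treated library with low atrial markers, Pde7a was at 7.07 CPM and Pde4c at 9.90 CPM, both near WKY. In the other 5 treated libraries Pde7a was at 50.7 to 95.6 CPM and Pde4c at 0.632 to 4.44 CPM. For these genes too, strain and chamber markers cannot be told apart. With the marker score (mean log2 CPM of the atrial minus that of the ventricular markers) as a term in a fit of all 12 libraries, Pde7a was at 0.06 and Pde4c at 1.82, and neither passed (adjusted p of 0.960 and 0.280 by edgeR). The score was -4.20 to -3.98 in WKY and 3.39 to 8.41 in SHR, without overlap. Among treated libraries only ARNI replicate 2, at -2.84, lay near WKY, so this fit can hardly separate chamber markers from strain.

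Among the genes of cGMP synthesis (natriuretic peptides, their receptors, guanylyl cyclases and nitric oxide synthases), 9 of 17 were tested and 2 were called, both higher in SHR, against 5.54% called higher of all genes. Nppa, the atrial natriuretic peptide and itself a chamber marker, had a log2 difference of 7.82 ± 1.02 (adjusted p of 0.00703 by edgeR). Npr3, the clearance receptor for natriuretic peptides, had a log2 difference of 2.56 ± 0.48 (adjusted p of 0.0181). It was at 45.8 to 81.6 CPM in WKY and at 575, 165 and 586 CPM in SHR. Without the fold threshold, 3 of the 9 passed higher and 2 lower, against 12.3% and 8.26% of all genes.

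Of the listed targets of cGMP-dependent kinase, 17 of 19 were tested, 3 were called higher and 0 lower, against 5.54% and 3.35% of all genes. The median of the 17 was -0.12, with 12 below 0. Without the fold threshold 5 passed higher and 2 lower, against 12.3% and 8.26% of all genes. One of the 3 is no target but the other cGMP kinase, Prkg2, which was at 0 reads in all 3 WKY libraries and at 4.95, 1.42 and 4.40 CPM in SHR. The SHR mean was at least 13.5-fold higher than 3 reads in the shallowest WKY library, and its adjusted p was 0.0166 by edgeR. Prkg2 was also at 0 in ARNI replicate 2. Itpr1, an inositol trisphosphate receptor that releases calcium, had a log2 difference of 1.41 ± 0.29 (adjusted p of 0.0220 by edgeR). Rgs2, which restrains signalling through Gq-coupled receptors, had one of 1.32 ± 0.30 (adjusted p of 0.0295). Itpr1 was at 35.6 to 42.0 CPM in WKY and at 144, 61.9 and 139 CPM in SHR. In SHR replicate 2, the library with both sets of chamber markers, Prkg2, Itpr1 and Rgs2 were each the lowest of the SHR group.

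The list for cAMP synthesis held adenylyl cyclases and G proteins, whichever way these act on the cyclases. Of its 15 genes, 13 were tested and 1 was called. This was Gnao1, a G protein alpha subunit, at a log2 difference of 2.31 ± 0.24 (adjusted p of 0.00433 by edgeR). Of the cAMP effectors, 22 of 24 were tested and 1 was called, Pkig, an inhibitor of protein kinase A, at 1.24 ± 0.15 (adjusted p of 0.00594). Both were higher in SHR, and these counts of 1 stand beside 8.89% called of all genes. The list for cyclic nucleotide export had 4 tested genes, of which 0 were called. Without the fold threshold 1 passed in each direction, against 12.3% higher and 8.26% lower of all genes. Of these, Abcc4 and Abcc5 are known exporters, while Abcc8 and Abcc9 are sulfonylurea receptors of potassium channels. The medians of these lists lay from -0.21 to 0.31, on both sides of the median of all genes. Of the 9 called genes of these lists, Pde7a, Gnao1 and Pkig were called without any single library, and each of the other 6 lost its call without at least 1 of the 6. Pde4c did so without any 1 of the WKY replicates (adjusted p of 0.102 to 0.126 by edgeR), Nppa only without WKY replicate 2 (0.0524), and Rgs2 without every library but SHR replicate 2. Npr3 and Itpr1 lost it without SHR replicate 1 or any WKY replicate (0.0570 to 0.0781 for Npr3 and 0.0676 to 0.0911 for Itpr1), as did Prkg2 (0.0538 to 0.0564). With the marker score 0 of the 9 were called. Npr3 (-1.33), Itpr1 (-0.75), Gnao1 (-0.30) and Pde4c then turned sign, while Nppa (1.28), Pkig (0.69), Rgs2 (0.54), Pde7a and Prkg2 did not. As the score did not overlap between SHR and WKY, neither the lost calls nor these signs can separate strain from chamber markers. Nppa is itself part of the score.

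**Figure D3:**
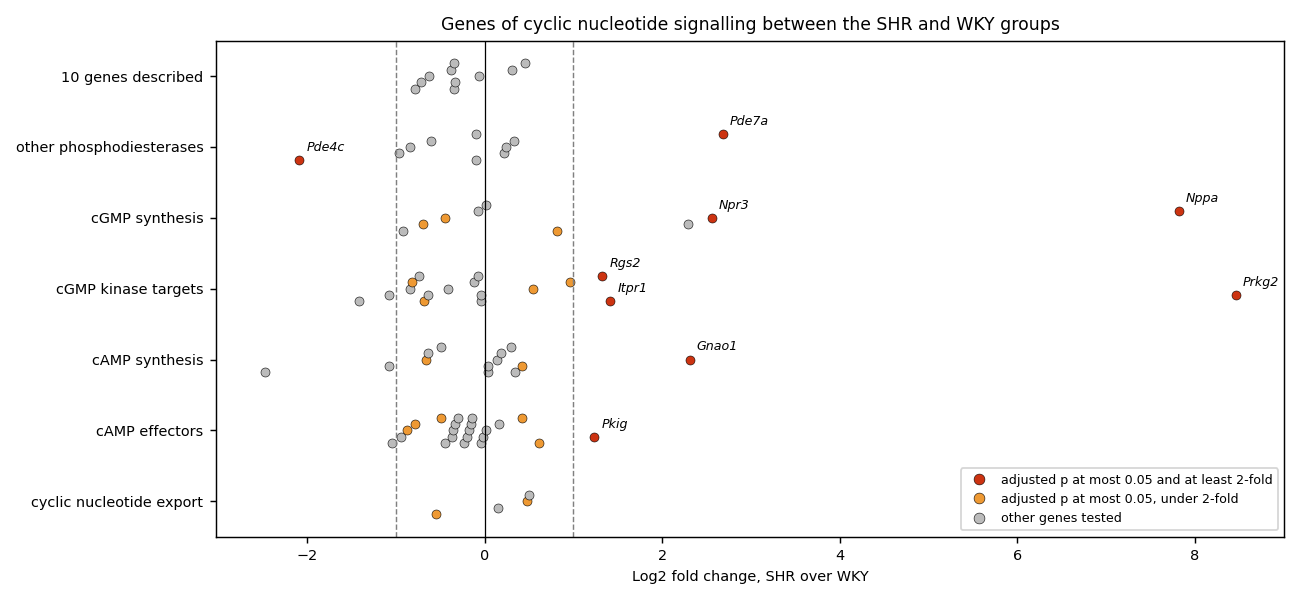
Log2 fold change, SHR against WKY, of every tested gene of the 10 and of the 6 other pathway lists, in red where called, in orange where only the adjusted p passed and in grey otherwise, with dashed lines at 2-fold. None of the 10 is red or orange, while Pde7a, Pde4c, Nppa, Npr3, Prkg2, Itpr1, Rgs2, Gnao1 and Pkig are red, and the fitted value of Prkg2 depends on the prior count because WKY had 0 reads.

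The ARB and ARNI groups were each compared with the SHR group to ask what the drugs changed in hypertensive rats. Both comparisons use the same 3 SHR libraries, so their values are given side by side only. Each group mixed libraries of unlike chamber markers. Myl2 was at 2298 CPM in SHR replicate 2, 2573 in ARB replicate 3 and 4161 in ARNI replicate 2, where Myl7 was at 9.67 CPM. A count of 0 called therefore does not show that the drugs changed nothing. In ARB against SHR, 0 of 13979 genes were called (0%) and 0 of the 10. At an unadjusted p under 0.05 there were 225 genes (1.61%) and 0 of the 10, and DESeq2 called 3 genes and 0 of the 10. In ARNI against SHR, 0 of 13955 genes were called (0%) and 0 of the 10. At an unadjusted p under 0.05 there were 227 genes (1.63%) and 0 of the 10, and DESeq2 called 7 genes and 0 of the 10. Every adjusted p of the 10 genes was 0.999 or above in both comparisons. If the SHR group was instead taken from the title words, 1 of the 10 was called in ARB and 0 in ARNI. The gene called was Pde1c, at a log2 difference of -1.51 (adjusted p of 0.0374 by edgeR). In that reading 1526 of 13786 genes tested were called in ARB and 34 of 13656 in ARNI. The libraries then taken as SHR are those named WKY, which had low atrial markers.

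Prkg1 was at 3.83, 4.94 and 2.62 CPM in ARB and at 4.86, 4.08 and 6.51 CPM in ARNI. Both overlapped the SHR range. Its log2 difference from SHR was -0.72 (95% interval -1.50 to 0.06) with valsartan and -0.24 with sacubitril/valsartan, where the fold was 0.847 (95% interval 0.498 to 1.44). The latter turned to 0.10 without SHR replicate 3, and the former was then -0.39.

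Pde5a was at 5.36, 4.95 and 4.68 CPM in ARB and at 3.48, 6.13 and 7.67 CPM in ARNI. The ARB libraries lay within the SHR range, and so did those of ARNI. Its log2 difference from SHR was -0.24 (-1.06 to 0.58) in ARB and 0.01 (-1.08 to 1.10) in ARNI. Pde9a was at 3.64, 4.13 and 6.26 CPM in ARB and at 4.93, 3.22 and 4.14 CPM in ARNI, with log2 differences of 0.18 (-0.56 to 0.91) and 0.01 (-0.61 to 0.63). For these cGMP-specific enzymes, the intervals in ARB reached down to 0.480 times the SHR level for Pde5a and up to 1.88 times for Pde9a.

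Pde2a, the cGMP-stimulated enzyme, was at 83.3, 72.9 and 65.0 CPM in ARB and at 69.1, 74.9 and 71.4 CPM in ARNI. The intervals were the narrowest of the 10 genes in these comparisons. The fold relative to SHR was 1.07 in ARB (0.856 to 1.34) and 1.09 in ARNI (0.864 to 1.36), so a 2-fold difference lay outside both. Pde1a had log2 differences of 0.19 (-0.78 to 1.17) in ARB and -0.23 (-1.11 to 0.65) in ARNI. Pde1c was at 0.634 to 1.17 CPM in ARB and at 0.758 to 2.51 CPM in ARNI, beside 0.602 to 2.24 CPM in SHR.

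Pde3a, the cGMP-inhibited enzyme of heart muscle, was at 169, 186 and 161 CPM in ARB and at 191, 271 and 145 CPM in ARNI. All ARB libraries lay below all SHR libraries, which held for 1 of the 10 genes and 5.39% of all genes, while ARNI spanned the SHR range. The log2 difference in ARB was -0.28 (-0.66 to 0.11), with an unadjusted p of 0.131. In ARNI it was 0.04 (-0.72 to 0.80), and without ARNI replicate 2 it was -0.32. Pde4d, the cAMP-specific enzyme with the similar profile, was at 59.2, 75.2 and 64.9 CPM in ARB and at 82.7, 83.4 and 66.2 CPM in ARNI, and both groups overlapped SHR. Its log2 differences were -0.13 (-0.52 to 0.26) in ARB and 0.15 (-0.33 to 0.64) in ARNI. Pde4b was at 30.3, 29.9 and 18.7 CPM in ARB and at 28.4, 25.4 and 27.2 CPM in ARNI, with ARB replicate 3 below the SHR range and the others within it. The log2 differences were -0.30 (-0.89 to 0.29) and -0.21 (-0.74 to 0.33).

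Pde3b was at 2.44, 7.45 and 3.25 CPM in ARB and at 2.39, 1.49 and 9.25 CPM in ARNI. One library in each treated group was far above the others. Its log2 difference from SHR was 0.63 (-0.33 to 1.60) in ARB and 0.66 (-0.90 to 2.22) in ARNI. Without ARB replicate 2 the former was 0.09, and without ARNI replicate 3 the latter was -0.43.

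The ARNI and ARB groups were compared to ask what sacubitril adds to valsartan. The ARNI dose of 60 mg/kg is of the combined drug. The share of valsartan in it was not stated, so whether the valsartan doses of these groups matched was not checked. Again 0 of 13948 genes were called (0%) and 0 of the 10. Chamber markers differed within both groups here too, so this count does not show that the drugs acted alike. At an unadjusted p under 0.05 there were 539 genes (3.86%) and 0 of the 10, and DESeq2 called 18 genes and 0 of the 10. Groups did not overlap for 0 of the 10 genes, against 10.5% of all genes. For ARNI against SHR that was 0 of the 10, against 6.56%.

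Prkg1 differed between ARNI and ARB by 0.50 on the log2 scale (95% interval -0.18 to 1.17), with an unadjusted p of 0.122. Pde1c had the largest of the 10 differences, 0.92 (-0.30 to 2.15), on at most 37 reads per library. Pde3a differed by 0.33 (-0.38 to 1.03), Pde4d by 0.29 (-0.14 to 0.72) and Pde5a by 0.26 (-0.52 to 1.05). Pde3b, at 0.03, had the widest interval, -1.69 to 1.75. The smallest differences also included Pde2a at 0.03 (-0.34 to 0.39) and Pde4b at 0.10 (-0.34 to 0.55). Pde1a was at -0.41 (-1.17 to 0.34) and Pde9a at -0.15 (-0.91 to 0.60). In all 3 comparisons with treated rats, 0 genes of the 6 other pathway lists were called, and 0 passed on adjusted p alone.

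Set in order of group means, Prkg1 ran from 6.42 ± 2.65 CPM in SHR (SD, n = 3) through 5.15 ± 1.24 in ARNI and 4.66 ± 1.02 in WKY to 3.798 ± 1.16 in ARB. Pde5a ran from 7.14 ± 0.236 CPM in WKY through 6.10 ± 2.92 in SHR and 5.76 ± 2.12 in ARNI to 4.995 ± 0.342 in ARB. Pde3a ran from 245 ± 8.67 CPM in WKY through 211 ± 25.4 in SHR and 202 ± 64.1 in ARNI to 172 ± 12.8 in ARB. Among the pairs compared here under the library names, none differed after adjustment. ARB and the libraries named WKY, the ends of the Pde5a and Pde3a orders, were compared only under the reading by title words. There Pde3a (adjusted p of 0.00587 by edgeR) and Pde5a (0.0321) passed on p at a log2 difference of -0.60 each. The libraries named WKY had low atrial markers, and the part of this in these differences was not tested. Pde9a stood at 5.997 ± 0.656 CPM in WKY, above 4.68 ± 1.396 in ARB, 4.27 ± 0.936 in SHR and 4.10 ± 0.854 in ARNI.

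Several of the high libraries of the 10 genes were also those with high markers of other cells, as the plot of these genes against summed markers shows. Pde3b was highest in ARB replicate 2 and ARNI replicate 3. The 7 adipocyte markers summed to 448 CPM and 253 CPM in these 2 libraries, with 0 of the 7 at 0 reads, and to 2.91 to 25.2 CPM in the other 10. Adipoq, the adipocyte hormone adiponectin, was at 192 CPM and 61.7 CPM there and at 4.71 CPM or less elsewhere. ARNI replicate 3 also had the highest sum of the 7 neuron markers, 172 CPM against 5.82 to 24.4 CPM. The part of these cells in the Pde3b values was not tested.

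Prkg1, Pde1a, Pde4b and Pde5a each had their highest value in SHR replicate 3. The 9 fibroblast markers summed to 5145 CPM in that library and to 1379 to 3454 CPM in the other 11, with 0 of the 9 at 0 in any library. ARNI replicate 3, with 3454 CPM of these markers, had Prkg1 at 6.51 CPM. ARB replicate 3, with 2611 CPM, had the lowest Prkg1 (2.62 CPM) and Pde4b (18.7 CPM) of the 12. The 6 epicardial and mesothelial markers were also highest there, at 448 CPM against 47.1 to 311 CPM, and so were the 4 endocardial markers, at 998 CPM against 87.6 to 962 CPM. Without it, the log2 differences between SHR and WKY were -0.77 for Pde1a and -0.74 for Pde5a, neither of which passed (adjusted p of 0.0538 and 0.102 by edgeR). The smooth muscle list, whose cells are a known site of Prkg1 and Pde5a, summed to 2414 CPM in SHR replicate 3, its lowest of the 12. The part of these cells in the values of the 4 genes was not tested.

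Pde3a was at 236 to 271 CPM in the 4 libraries with low atrial markers and at 239 CPM in SHR replicate 2, and at 145 to 207 CPM in the other 7. ARB replicate 3 was among these 7, at 161 CPM, although its Myl2 was at 2573 CPM. With the marker score as a term, the SHR against WKY difference of Pde3a turned from -0.34 to 0.37 (adjusted p of 0.458 by edgeR), while Pde3b moved from -0.72 to -1.93 (adjusted p of 0.335) and Pde9a from -0.63 to -0.49 (0.602). The score did not overlap between SHR and WKY, so these shifts do not separate strain from chamber markers. The 8 markers shared by cardiomyocytes of both chambers summed to 63407 to 87051 CPM over the 12 libraries.

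**Figure D4:**
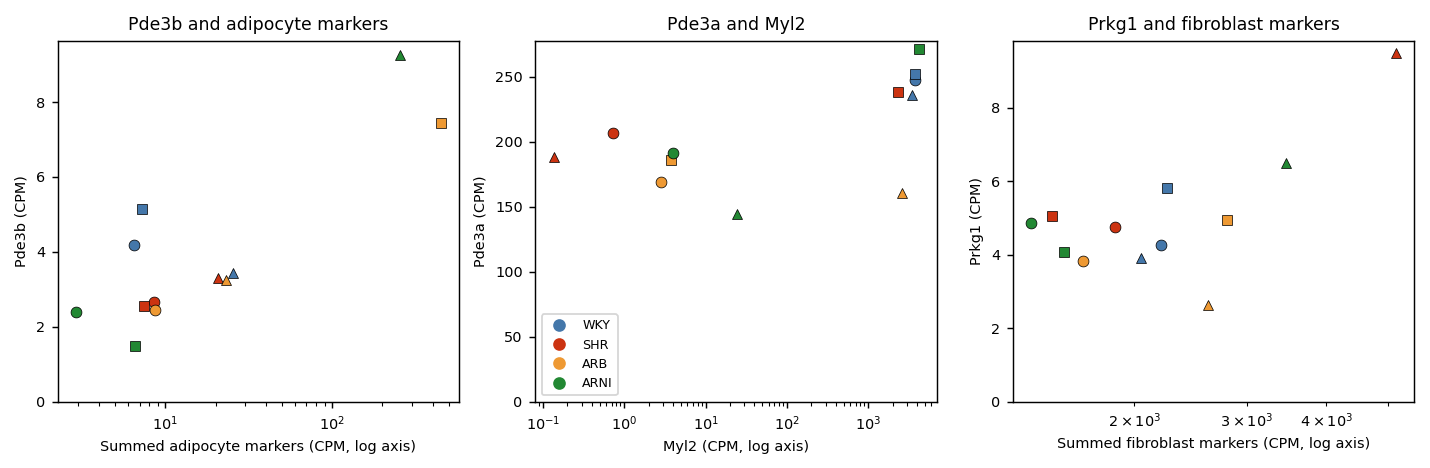
CPM of single genes against the summed CPM of a marker list or a marker gene, 1 point per library, coloured by group, with circle, square and triangle for replicates 1, 2 and 3 and a log x axis. Pde3a lies high in 5 of the 6 libraries with Myl2 above 2000 CPM, and Pde3b is high in the 2 libraries with adipocyte markers of 253 and 448 CPM. Prkg1 is highest in the library with fibroblast markers of 5145 CPM and lowest in ARB replicate 3, with 2611 CPM of them.

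The genes whose log2 CPM followed each of the 10 most closely over the 12 libraries, among 14452 genes, give a picture of what varied with them. These are descriptions across libraries that share group, chamber markers and depth. Pde3a varied most like Ppat, an enzyme of purine synthesis (r = 0.98), then Glb1l2 (0.97) and Dennd2c (0.96). Pde4d varied most like Ppp1r3a, which targets protein phosphatase to glycogen in muscle (0.98), then Usp15 and Mtif2 (both 0.95). Pde3b varied most like Cmahp (0.92), Pygl, the liver form of glycogen phosphorylase (0.91), and Snap25, a neuronal vesicle fusion protein (0.89). Pde1a was closest to Themis2 (0.94), the matrix protein Fbln1 (0.93) and the receptor P2ry6 (0.93). Pde5a was closest to Gpr34 (0.94), the prostacyclin receptor Ptgir (0.93) and Chp2 (0.92).

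Prkg1 was closest to the protease Adamts1 (0.93), the deubiquitinase Cyld (0.92) and Zfp318 (0.91). Pde4b was closest to Plagl2 (0.95), Ap1s3 (0.94) and Irf2bpl (0.93). Pde1c was closest to the angiotensin-converting enzyme Ace (0.91), then Reln and Foxd2 (both 0.89). Pde9a had weaker neighbours, LOC103692066 (0.86), Nrros (0.85) and Clip3 (0.85), and so did Pde2a, with Nfic (0.86), Aar2 (0.83) and LOC103690173 (0.79). Among the 10 genes themselves, r was 0.84 for Pde1c with Pde5a and 0.68 both for Pde1a with Pde9a and for Prkg1 with Pde4b.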

How the data were processed

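RNA of the left atrium of 12 male rats (4 groups of 3) was sequenced after poly(A) selection. The authors aligned reads with HISAT2 2.0.4 to Rnor_6.0 and, with Bowtie2 2.2.5, to transcripts, and deposited a table of RSEM estimates, which are expected counts, and of which 23.6% of values were not whole. Counts shared between similar sequences are split by RSEM, and most Prkg1, Pde3a and Pde3b values were not whole. The deposited table also holds log2 fold changes and p-values of the authors' own comparisons, which were not used. Of 37246 genes listed, 16007 had no counts.

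Counts were rounded and each pair of groups was fitted over all genes with edgeR 4.0.16 in R 4.3.3 (filterByExpr, TMM, quasi-likelihood test), on 6 libraries, with Benjamini-Hochberg adjustment and calls at an absolute log2 fold change of 1 and an adjusted p of 0.05. CPM used library totals alone, while the fitted differences used TMM, and 3 reads were 0.190 to 0.267 CPM. Intervals are 95%. Scripts were tested on simulated counts. Log2 CPM for correlations used a prior count of 1. Alternatives included DESeq2 1.42.0, other scaling, no filter, a fit of all 12 libraries, chamber markers and leaving out libraries. The named genes are the 10, at most 4 called genes of each pathway list by size of difference, and the 3 closest genes by correlation. The genes and lists were chosen with earlier results of these data known. P-values measure the spread between libraries of a group, in which rats, chamber markers and counting error were not separated. Same-numbered replicates deviated together in ARNI and SHR (correlations 0.51, 0.46 and 0.19, a pairing read from the data, as the labels give none). In ARB and SHR only replicate 1 did (0.42, against -0.24 and -0.25). The same held in ARNI and ARB (0.52, against -0.44 and -0.15). In SHR and WKY the correlations were 0.03, -0.05 and -0.07.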

Additional observations from a re-analysis of the deposited data

How the results depend on the processing

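The number of the 10 genes called was 0 in all 4 comparisons and stayed 0 under every alternative run but 1, including leave-one-out fits (0 to 0) and the fit with the replicate number as a block (0 in each comparison). The block changed no call on the 10 genes. The exception is ARB against the saline libraries that the title words call SHR, where 1526 of 13786 genes tested were called. Of the 10 genes, 1 was called there, Pde1c at -1.51 (adjusted p of 0.0374 by edgeR). In that reading Pde3a (-0.60), Pde4d (-0.44) and Pde5a (-0.60) passed on p alone. For SHR against WKY, the alternative was to leave out only SHR libraries of high Myl2, as all 3 WKY libraries are above the limit, and this is the same fit as leaving out SHR replicate 2.

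Log2 differences that turned sign, the cause of which was not tested, were as follows. With no scaling beyond totals they were Pde2a 0.077 in SHR against WKY, Pde3a -0.061, Pde5a -0.083 and Pde9a -0.058 in ARNI against SHR, and Pde2a -0.038 in ARNI against ARB. With the marker score they were Prkg1 -0.098, Pde2a 0.087, Pde3a 0.37, Pde4d 0.060 and Pde5a 0.049 in SHR against WKY, Pde3a -0.18, Pde5a -0.10 and Pde9a -0.0049 in ARNI against SHR, and Pde2a -0.033 in ARNI against ARB. With the replicate block they were Pde3a -0.024 in ARNI against SHR and Pde3b -0.18 in ARNI against ARB. Without libraries of high Myl2 (above 100 CPM) they were Pde1a -0.32 and Pde9a -0.11 in ARB against SHR, Pde3a -0.18 and Pde5a -0.12 in ARNI against SHR, and Pde2a -0.14, Pde3a -0.056, Pde4b -0.095 and Pde9a 0.25 in ARNI against ARB. Leaving out single libraries gave, in SHR against WKY, Prkg1 -0.020 to 0.49 and Pde2a -0.12 to 0.0058. In ARB against SHR it gave Pde1a -0.073 to 0.62, Pde4d -0.24 to 0.030, Pde5a -0.52 to 0.12 and Pde9a -0.15 to 0.33. In ARNI against SHR it gave Prkg1 -0.41 to 0.10, Pde1a -0.48 to 0.20, Pde1c -0.26 to 0.51, Pde3a -0.32 to 0.27, Pde3b -0.43 to 1.04, Pde4b -0.35 to 0.052, Pde5a -0.28 to 0.37 and Pde9a -0.14 to 0.14. In ARNI against ARB it gave Pde2a -0.085 to 0.12, Pde3a -0.045 to 0.55, Pde3b -1.05 to 0.57, Pde4b -0.058 to 0.22 and Pde9a -0.31 to 0.17.

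Pde1c rests on 8 to 37 reads per library. Counting error and the spread between rats were not separated for any gene. The number of all genes called in SHR against WKY ran from 79 with the marker score to 2205 without SHR replicate 2, beside 1226. Over the 9 called genes of the pathway lists, the replicate block left 5 called (Pde7a, Nppa, Prkg2, Gnao1 and Pkig) and the fit of all 12 libraries left 6 (these and Rgs2).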
